A study of Mus musculus with 9 samples.

Results

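Integrins are receptors that hold cells to the extracellular matrix, and laminins are matrix proteins of the basement membrane that several integrins bind. In the deposited data 36 genes of both families were found among 19661 genes with a probe set of their own, namely 18 integrin alpha subunits, 8 integrin beta subunits and 10 laminin chains. They were matched by gene symbol, without a cut on any measured value. For a gene with several probe sets the brightest was taken, which concerned only Itgad.

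The samples were mouse skeletal muscle myoblasts, proliferating cells that can fuse into fibres, from the Balb/c strain, and total RNA of each was hybridised to 1 of 9 arrays. Cells overexpressing Pax7 (3 arrays) and cells overexpressing Pax3 (3 arrays) were compared with cells that carried an empty vector (3 arrays, labelled CTAP control, called control here). All cells grew in the same F10 medium with 20% fetal bovine serum and 4 ng/ml basic fibroblast growth factor. Pax3 acts mainly in embryonic muscle progenitors and Pax7 in satellite cells, which repair adult muscle; both are transcription factors with a paired domain and a homeodomain. The sources used here do not give the vector, its promoter, the sex of the cells or whether a group was 1 clone or several cultures. The p-values therefore capture the spread of these samples alone, and that spread may be technical.

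An integrin is a pair of an alpha and a beta subunit, and the pair decides what the receptor binds. Itgb1 pairs with most alpha subunits, among them those for collagen and for laminin, while Itgb4 pairs with Itga6 and anchors epithelial cells through hemidesmosomes. Itgav pairs with Itgb1, Itgb3, Itgb5, Itgb6 or Itgb8 to bind ligands with the short RGD peptide motif. A laminin is a trimer of an alpha, a beta and a gamma chain; the main laminin around muscle fibres holds Lama2, and Itga7 is the main laminin receptor subunit of muscle.

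Before the members, the state of the arrays was examined. Values are log2 intensities, in which 1 unit is a doubling of signal, with array medians between 6.397 and 6.477 over all probe sets, and the correlation across genes within a group was r = 0.9974 to 0.9991. Pax3 averaged 6.82 in Pax7 arrays, 11.05 in Pax3 arrays and 5.83 in control arrays, and Pax7 averaged 12.28, 8.18 and 10.51 in the same order, as log2 intensity. The myoblast regulator Myod1 was bright in every group, at means of 12.18 in Pax7, 12.50 in Pax3 and 12.62 in control arrays. Xist, made from the inactive X chromosome, stood at 11.70 to 11.76 in Pax7 arrays, 11.90 to 12.04 in Pax3 arrays and 4.62 to 4.85 in control arrays. The Y-linked Eif2s3y averaged 3.08, 3.12 and 8.78, Uty 3.77, 3.85 and 9.27 and Kdm5d 4.29, 4.24 and 8.31 in Pax7, Pax3 and control arrays. Every difference from control below therefore also lay between arrays with Xist and arrays with Y-linked signal, and the overexpressed factor and the origin of the cells cannot be told apart there. Differences between Pax7 and Pax3 arrays did not carry that split. In RNA from whole cultures, fewer cells of a type and less RNA per cell cannot be told apart either.

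Itga2 stood out with a log2 fold change of nearly 5 units in both comparisons against control, Itgb4 and Itga1 were also higher with either factor, and Itgb8, Itgb6 and Itga4 were lower by more than 1 unit. Of the 36 members, 21 passed the threshold between Pax7 and control arrays (limma, Benjamini-Hochberg adjusted p under 0.05 over all 19661 genes), 11 higher and 10 lower. Over all genes 43.2% passed, 21.6% higher and 21.5% lower. Between Pax3 and control arrays 21 members also passed, 12 higher and 9 lower, against 39.6% of all genes, 19.8% higher and 19.7% lower. With Pax7 10 members, and with Pax3 6 members, differed from control by 1 log2 unit or more, against 6.58% and 4.8% of all genes. For either factor 23 members had no overlap between its arrays and the control arrays, where 55.5% of all genes did not overlap with Pax7 and 45.1% with Pax3. The median log2 fold change over the 36 members was 0.0562 with Pax7 and 0.0949 with Pax3, beside 0.0274 and 0.0157 over all genes. The median absolute change was 0.367 with Pax7 and 0.341 with Pax3, beside 0.133 and 0.114 over all genes. Both comparisons used the same 3 control arrays.

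**Figure D1:**
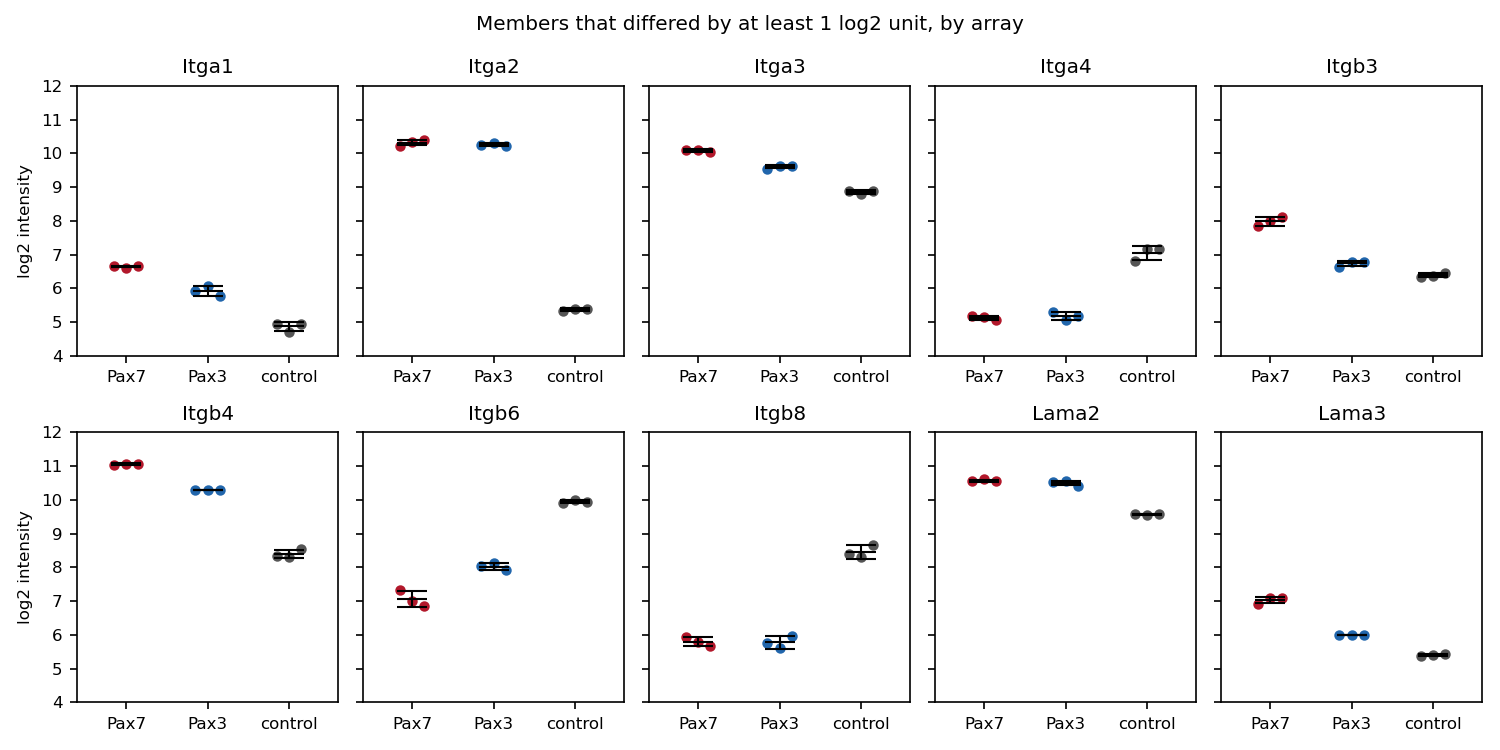
Log2 intensity (vertical axis) on each of the 3 arrays of the Pax7, Pax3 and control groups for the 10 members with a called difference of at least 1 log2 unit in any comparison; points are arrays, black bars the mean and SD. Itga2 lies near 10.3 in both overexpressing groups and near 5.4 in control arrays, while Itgb3 and Lama3 separate all 3 groups.

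Of the 4 collagen receptor alpha subunits, 2 rose with each factor and 2 did not pass. Itga2, the alpha subunit of a receptor for fibrillar collagen, measured 10.23, 10.35 and 10.39 in Pax7 arrays, 10.24, 10.32 and 10.23 in Pax3 arrays, and 5.32, 5.38 and 5.4 in control arrays. All 6 overexpressing arrays lay far above the control arrays, and the Pax7 and Pax3 arrays overlapped. Itga2 was 31.1-fold higher with Pax7 (log2 fold change 4.96 ± 0.051, SE, n = 3 per group, limma adjusted p = 3.26e-13) and 29.9-fold higher with Pax3 (4.90 ± 0.051, limma adjusted p = 3.67e-13). Its relative Itga1, which favours the sheet-forming collagen of basement membranes, measured 6.66, 6.62 and 6.66 in Pax7 arrays, 5.93, 6.08 and 5.79 in Pax3 arrays, and 4.96, 4.71 and 4.95 in control arrays. The 3 groups did not overlap for Itga1, with Pax3 between the others. It rose by 1.78 ± 0.081 with Pax7 and by 1.06 ± 0.081 with Pax3 (SE, limma adjusted p = 1.25e-08 and 1.25e-06). The other collagen-binding subunits, Itga10 and Itga11, did not pass in either comparison. Their log2 fold changes were 0.08 and -0.10 with Pax7, and 0.15 and -0.14 with Pax3.

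The sequences just upstream of the start sites are shown for the member that rose most and for the beta subunits that fell most. Itgb4, which rose by 2.67 with Pax7 and 1.90 with Pax3, had no window among those used. They come from RefSeq (GRCm38.p6), cover the 250 bases before the start and run 5′ to 3′ along the gene. Capitals mark ATTA on either strand, the core that homeodomains bind.
Itga2, chr13:114932101-114932350, minus strand: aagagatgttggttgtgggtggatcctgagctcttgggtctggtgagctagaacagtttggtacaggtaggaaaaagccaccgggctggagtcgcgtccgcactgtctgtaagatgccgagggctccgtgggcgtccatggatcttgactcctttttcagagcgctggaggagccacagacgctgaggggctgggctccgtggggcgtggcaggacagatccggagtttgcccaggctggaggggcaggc
Itgb8, chr12:119238277-119238526, minus strand: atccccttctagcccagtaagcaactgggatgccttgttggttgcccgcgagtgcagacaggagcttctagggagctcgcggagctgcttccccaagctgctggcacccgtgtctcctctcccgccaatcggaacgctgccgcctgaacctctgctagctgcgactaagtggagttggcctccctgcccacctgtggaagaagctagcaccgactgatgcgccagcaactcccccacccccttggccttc
Itgb6, chr2:60722604-60722853, minus strand: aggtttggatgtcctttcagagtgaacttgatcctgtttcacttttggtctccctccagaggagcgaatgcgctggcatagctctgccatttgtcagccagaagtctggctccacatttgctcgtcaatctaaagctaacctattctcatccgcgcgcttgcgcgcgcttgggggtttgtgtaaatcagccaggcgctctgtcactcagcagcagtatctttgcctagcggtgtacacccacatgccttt
Itgb6, chr2:60673694-60673943, minus strand: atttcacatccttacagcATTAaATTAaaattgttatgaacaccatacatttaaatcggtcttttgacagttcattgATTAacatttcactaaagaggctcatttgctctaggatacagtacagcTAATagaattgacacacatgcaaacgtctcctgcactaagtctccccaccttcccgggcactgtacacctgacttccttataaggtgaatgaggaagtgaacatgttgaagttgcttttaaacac

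The RefSeq table held such windows for 23 of the 36 members, 26 windows in all. ATTA was present in 10 of the 26 (38.5%), against 54.9% of 32851 windows of all genes. TCACG, a core that paired domains bind, was present in 3 of the 26 on either strand (11.5%), against 18.5% of all. A spaced pair of homeodomain cores, TAAT and ATTA with any 3 bases between them, a pattern that always holds the first motif, was present in 0 of the 26 and in 0.463% of all. Of the windows printed, those of Itga2 and Itgb8 and the first of Itgb6 held none of the 3 motifs, and the other window of Itgb6 held ATTA 4 times. The windows are short, and the letters alone say nothing about where either factor binds.

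Of the 3 laminin-binding alpha subunits, 1 rose and 2 fell with each factor, and the laminin receptor subunit Itgb4 rose. Itgb4 measured 11.04, 11.07 and 11.08 in Pax7 arrays, 10.29 in each of the 3 Pax3 arrays, and 8.33, 8.32 and 8.54 in control arrays. The groups were fully separated, with Pax7 highest. Itgb4 was 6.36-fold higher with Pax7 (2.67 ± 0.057, SE, limma adjusted p = 3.61e-11) and 3.73-fold higher with Pax3 (1.90 ± 0.057, limma adjusted p = 7.74e-10). The identical Pax3 values arise in the deposited table itself, and the errors quoted rest on all 9 arrays.

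Itga6, the only alpha partner of Itgb4, measured 10.44, 10.36 and 10.40 in Pax7 arrays, 10.32, 10.43 and 10.20 in Pax3 arrays, and 10.93, 10.83 and 10.85 in control arrays. It fell by 0.47 on the log2 scale with Pax7 and fell by 0.56 with Pax3 (limma adjusted p = 5.61e-05 and 1.84e-05), while its beta partner rose. Itga7, the laminin receptor subunit of muscle, measured 10.20, 10.23 and 10.26 in Pax7 arrays, 10.45, 10.46 and 10.46 in Pax3 arrays, and 10.94, 10.92 and 10.92 in control arrays. No array of one group reached another group. Itga7 fell by 0.70 with Pax7 and fell by 0.47 with Pax3 (limma adjusted p = 5.39e-08 and 1.91e-06). Itga3, which binds laminins of epithelial basement membranes, moved the other way. It measured 10.10, 10.11 and 10.05 in Pax7 arrays, 9.55, 9.64 and 9.63 in Pax3 arrays, and 8.89, 8.80 and 8.90 in control arrays. That was a rise of 1.22 ± 0.046 with Pax7 and 0.74 ± 0.046 with Pax3 (SE, limma adjusted p = 2.69e-09 and 2.25e-07). Itgb1, the shared beta partner of Itga3, Itga6 and Itga7, was at 11.32 to 11.39, 11.30 to 11.39 and 11.54 to 11.61 in Pax7, Pax3 and control arrays. It fell by 0.22 with Pax7 and fell by 0.21 with Pax3 (limma adjusted p = 0.00189 and 0.00253).

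Since Itgb4 and Itga3 are also abundant in epithelia, epithelial markers were read on the same arrays. The mean log2 intensity of 11 markers ran from 6.55 to 6.60 in Pax7 arrays, 6.21 to 6.31 in Pax3 arrays and 5.67 to 5.78 in control arrays. The median log2 fold change of the 11 was only 0.218 with Pax7 and 0.0857 with Pax3, beside 0.0274 and 0.0157 over all genes. With Pax7, 6 of the 11 rose and 5 did not pass, and with Pax3 5 rose and 6 did not pass (limma, beside 43.2% and 39.6% of all genes called in either direction). The desmosome protein Dsp rose by 4.83 and 4.57 with Pax7 and Pax3, and the keratin Krt18 by 2.44 and 0.66. The epithelial cadherin Cdh1 averaged 5.38 in Pax7, 5.35 in Pax3 and 5.35 in control arrays and did not pass (limma adjusted p = 0.63 and 0.976). The adhesion molecule Epcam averaged 5.73, 5.20 and 5.02 in those groups. The part of these markers in the rise of Itgb4 and Itga3 was not tested.

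Of the 4 RGD-binding alpha subunits, 1 rose and 1 fell with Pax7, and 2 rose and 1 fell with Pax3. Itgav, the shared alpha subunit, measured 10.89, 10.91 and 10.95 in Pax7 arrays, 10.86, 10.97 and 10.87 in Pax3 arrays, and 10.57, 10.56 and 10.58 in control arrays. It rose by 0.35 with Pax7 and 0.33 with Pax3 (limma adjusted p = 5.02e-05 and 7.88e-05). Of its beta partners other than Itgb1, Itgb8, Itgb6 and Itgb5 fell and Itgb3 rose with each factor.

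Itgb8, which with Itgav releases active TGF-beta from its latent form, measured 5.93, 5.79 and 5.67 in Pax7 arrays, 5.75, 5.61 and 5.97 in Pax3 arrays, and 8.39, 8.31 and 8.68 in control arrays. The overexpressing groups overlapped and lay below every control array. Itgb8 was 6.34-fold lower with Pax7 and 6.42-fold lower with Pax3 (log2 fold changes -2.66 ± 0.113 and -2.68 ± 0.113, SE, limma adjusted p = 6.78e-09 and 9.98e-09). Itgb6, whose pair with Itgav also activates latent TGF-beta, measured 7.33, 7.02 and 6.86 in Pax7 arrays, 8.04, 8.12 and 7.92 in Pax3 arrays, and 9.92, 10 and 9.93 in control arrays. Here the groups separated, with Pax7 lowest. Its log2 fold change was -2.88 ± 0.100 with Pax7 and -1.93 ± 0.100 with Pax3 (SE, limma adjusted p = 1.31e-09 and 5.05e-08).

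Itgb3, which pairs with Itgav to bind vitronectin and other RGD ligands, measured 7.85, 8.01 and 8.12 in Pax7 arrays, 6.65, 6.79 and 6.79 in Pax3 arrays, and 6.35, 6.37 and 6.46 in control arrays. Pax7 arrays were well apart from the other groups, and Pax3 arrays lay slightly above control arrays. Itgb3 was 3.04-fold higher with Pax7 (1.60 ± 0.071, limma adjusted p = 9.45e-09) and 1.27-fold higher with Pax3 (0.35 ± 0.071, limma adjusted p = 0.00214). Itgb5, a second vitronectin receptor subunit, measured 9.34, 9.36 and 9.35 in Pax7 arrays, 9.63, 9.63 and 9.62 in Pax3 arrays, and 10.22, 10.19 and 10.12 in control arrays. It fell by 0.83 with Pax7 and fell by 0.55 with Pax3 (limma adjusted p = 2.13e-08 and 9.08e-07). For the fibronectin receptor subunit Itga5 the means were 10.13 in Pax7, 10.20 in Pax3 and 10.09 in control arrays. Its difference from control did not pass with Pax7 (0.05, limma adjusted p = 0.387) and was at the threshold with Pax3 (0.11, limma adjusted p = 0.0495). Leaving out 1 array at a time, limma lost the Pax3 call in 8 of 9 fits and kept it only without control replicate 1 (highest adjusted p 0.174). Itga8, another RGD-binding subunit, fell by 0.82 with each factor, at means of 5.02 in Pax7, 5.02 in Pax3 and 5.84 in control arrays, with limma adjusted p-values of 1.39e-05 and 1.66e-05. It was dim on every array, and only 26.5% of all genes were dimmer in the mean over the 9 arrays. The platelet subunit Itga2b did not pass (0.02 with Pax7 and 0.09 with Pax3).

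Itga4, whose receptor binds Vcam1 and fibronectin, measured 5.17, 5.16 and 5.05 in Pax7 arrays, 5.29, 5.07 and 5.18 in Pax3 arrays, and 6.80, 7.17 and 7.17 in control arrays. Both overexpressing groups lay below every control array and overlapped each other. It was 3.79-fold lower with Pax7 and 3.65-fold lower with Pax3 (log2 fold changes -1.92 ± 0.096 and -1.87 ± 0.096, SE, limma adjusted p = 2.64e-08 and 4.88e-08). Its closest relative Itga9 stood at 5.51, 5.49 and 5.49 on average in Pax7, Pax3 and control arrays and did not pass. The 95% interval of its log2 fold change ran from -0.06 to 0.11 with Pax7 and from -0.08 to 0.09 with Pax3.

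Of the 5 alpha subunits of leukocyte integrins (Itgad, Itgae, Itgal, Itgam and Itgax), 0 passed in any comparison by limma, and 1 (Itgam, Pax3 against control) had an unadjusted p under 0.05. Between 18.8% and 28.1% of all genes were dimmer than Itgae, Itgal, Itgam or Itgax in the mean over the 9 arrays, and 53.3% were dimmer than Itgad. The beta subunit Itgb2 did not pass (0.18 with Pax7, adjusted p = 0.0632, and 0.11 with Pax3, adjusted p = 0.266). Itgb7, known from lymphocytes that home to the gut, measured 6.61, 6.69 and 6.68 in Pax7 arrays, 6.40, 6.43 and 6.47 in Pax3 arrays, and 5.88, 5.97 and 5.95 in control arrays. All 3 groups were apart. It rose by 0.72 with Pax7 and 0.50 with Pax3 (limma adjusted p = 1.48e-07 and 4.36e-06). Among 10 leukocyte markers, Cd68 rose by 2.04 and 1.36 and Laptm5 by 1.48 and 2.08 with Pax7 and Pax3, while Ptprc, found on all leukocytes, did not pass, at means of 4.73 in Pax7, 4.74 in Pax3 and 4.70 in control arrays. With each factor 2 of these markers rose and 1 fell (30% called, beside 43.2% of all genes with Pax7 and 39.6% with Pax3). Their median log2 fold change was 0.0433 with Pax7 and 0.0249 with Pax3. The mean of the 10 ran from 5.69 to 5.71 in Pax7, 5.65 to 5.71 in Pax3 and 5.29 to 5.41 in control arrays, and its part in the Itgb7 difference was not tested.

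**Figure D2:**
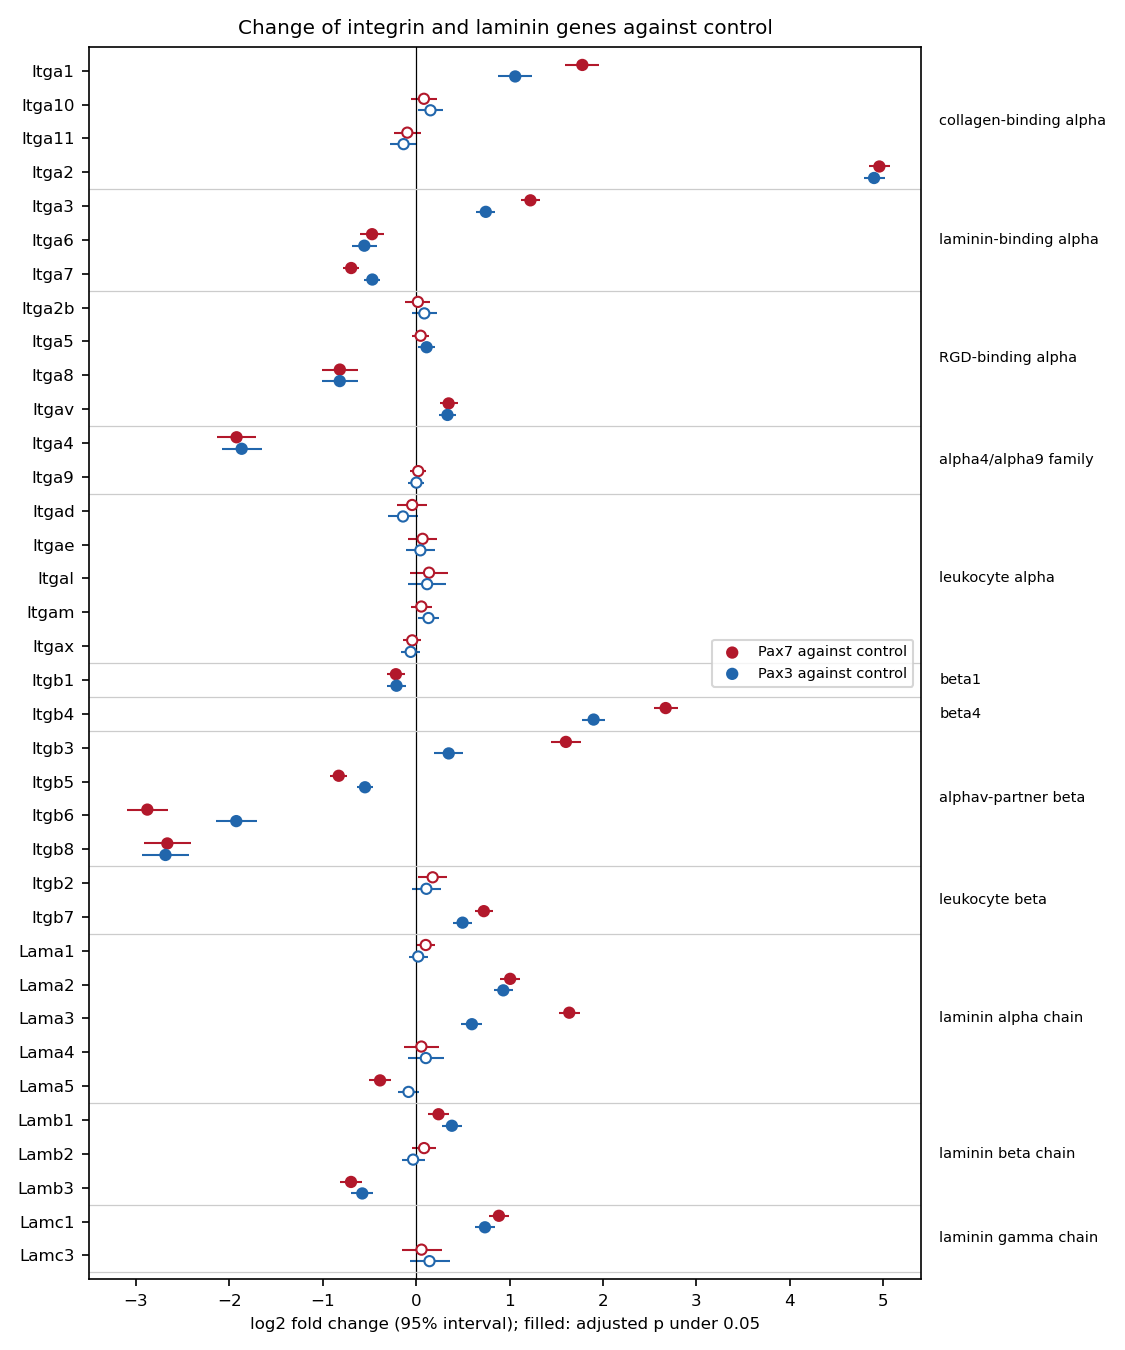
Log2 fold change against control (horizontal axis) of all 36 members, ordered by role, for Pax7 (red) and Pax3 (blue); lines are 95% intervals and filled points passed an adjusted p of 0.05. Itga2 lies near 5 for both factors, Itgb8 and Itgb6 lie lowest, and the 5 leukocyte alpha subunits lie near 0.

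Of the 10 laminin chains, 4 rose, 2 fell and 4 did not pass with Pax7, and 4 rose, 1 fell and 5 did not pass with Pax3. That was 60% and 50% of the chains, beside 43.2% and 39.6% of all genes. Lama2, Lamb1 and Lamc1, which form the muscle laminin, were each among those that rose. Lama2 measured 10.56, 10.61 and 10.55 in Pax7 arrays, 10.53, 10.56 and 10.42 in Pax3 arrays, and 9.57, 9.55 and 9.59 in control arrays. The overexpressing arrays were all above the control arrays. It rose by 1.01 ± 0.047 with Pax7 and 0.93 ± 0.047 with Pax3 (SE, limma adjusted p = 1.45e-08 and 4.05e-08). The gamma chain Lamc1 measured 10.03, 10.08 and 10.04 in Pax7 arrays, 9.94, 9.93 and 9.83 in Pax3 arrays, and 9.13, 9.13 and 9.22 in control arrays. It rose by 0.89 with Pax7 and 0.74 with Pax3 (limma adjusted p = 4.07e-08 and 2.68e-07). The beta chain Lamb1 was at 9.51 to 9.57, 9.63 to 9.74 and 9.24 to 9.38 in Pax7, Pax3 and control arrays, a rise of 0.24 with Pax7 and 0.38 with Pax3 (limma adjusted p = 0.00225 and 8.63e-05). The alternative beta chain Lamb2, which is concentrated at the neuromuscular junction, did not pass with Pax7 (0.08) or with Pax3 (-0.03).

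Lama3 and Lamb3, chains known from the basement membranes of epithelia, had opposite signs. Lama3 measured 6.93, 7.09 and 7.10 in Pax7 arrays, 5.99, 6 and 6 in Pax3 arrays, and 5.37, 5.41 and 5.43 in control arrays. The 3 groups did not overlap. It was 3.11-fold higher with Pax7 (1.64 ± 0.051, SE, limma adjusted p = 5.73e-10) and 1.51-fold higher with Pax3 (0.60 ± 0.051, limma adjusted p = 3.03e-06). Lamb3 measured 7.07, 7.04 and 7.14 in Pax7 arrays, 7.14, 7.24 and 7.24 in Pax3 arrays, and 7.74, 7.74 and 7.87 in control arrays. It fell by 0.70 with Pax7 and fell by 0.58 with Pax3 (limma adjusted p = 8.35e-07 and 5.14e-06). Lama5, a chain widespread in adult basement membranes, fell by 0.39 with Pax7 (limma adjusted p = 0.000102) and did not pass with Pax3 (-0.08, limma adjusted p = 0.267). The embryonic chain Lama1, the vascular chain Lama4 and Lamc3 did not pass in any comparison, with log2 fold changes from 0.02 to 0.14 against control.

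Pax7 and Pax3 arrays were then compared directly, without control arrays entering the difference. Of the 36 members 10 passed, 6 higher and 4 lower with Pax7 (27.8%), against 16.9% of all genes, 8.33% higher and 8.54% lower. A difference of at least 1 log2 unit was found for Itgb3 and Lama3, against 0.895% of all genes. Itgb3 was higher with Pax7 by 1.25 ± 0.071 and Lama3 by 1.04 ± 0.051 (SE, limma adjusted p = 7.02e-07 and 2.54e-07). Itgb4 was higher by 0.77, Itga1 by 0.72, Itga3 by 0.48 and Itgb7 by 0.23 (limma adjusted p of at most 0.00454). The log2 difference of Itgb6 was -0.95 ± 0.100, lower with Pax7 (SE, limma adjusted p = 6.24e-05). Lama5 differed by -0.30, Itgb5 by -0.28 and Itga7 by -0.23 (limma adjusted p of at most 0.00211). In 15 members the Pax7 and Pax3 arrays did not overlap, against 29.4% of all genes.

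Several of the members with large changes against control showed no called difference between the factors. The log2 difference of Pax7 minus Pax3 was 0.06 for Itga2 (95% interval -0.06 to 0.17), 0.02 for Itgb8 (-0.23 to 0.27), -0.05 for Itga4 (-0.27 to 0.16) and 0.07 for Lama2 (-0.03 to 0.18). These intervals bound the differences in measured signal and do not show that the factors acted alike. Itga4 averaged 5.13 in Pax7 and 5.18 in Pax3 arrays, and Itgb8 averaged 5.80 and 5.78. Beside them the leukocyte subunit Itgal averaged 5.44 and 5.42. At such dim signal a difference between the factors may not show. Lamc1 (0.15, limma adjusted p = 0.0528) and Lamb1 (-0.14, limma adjusted p = 0.0814) lay near the threshold, and Lamb3 (-0.12, limma adjusted p = 0.17) did not pass.

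**Figure D3:**
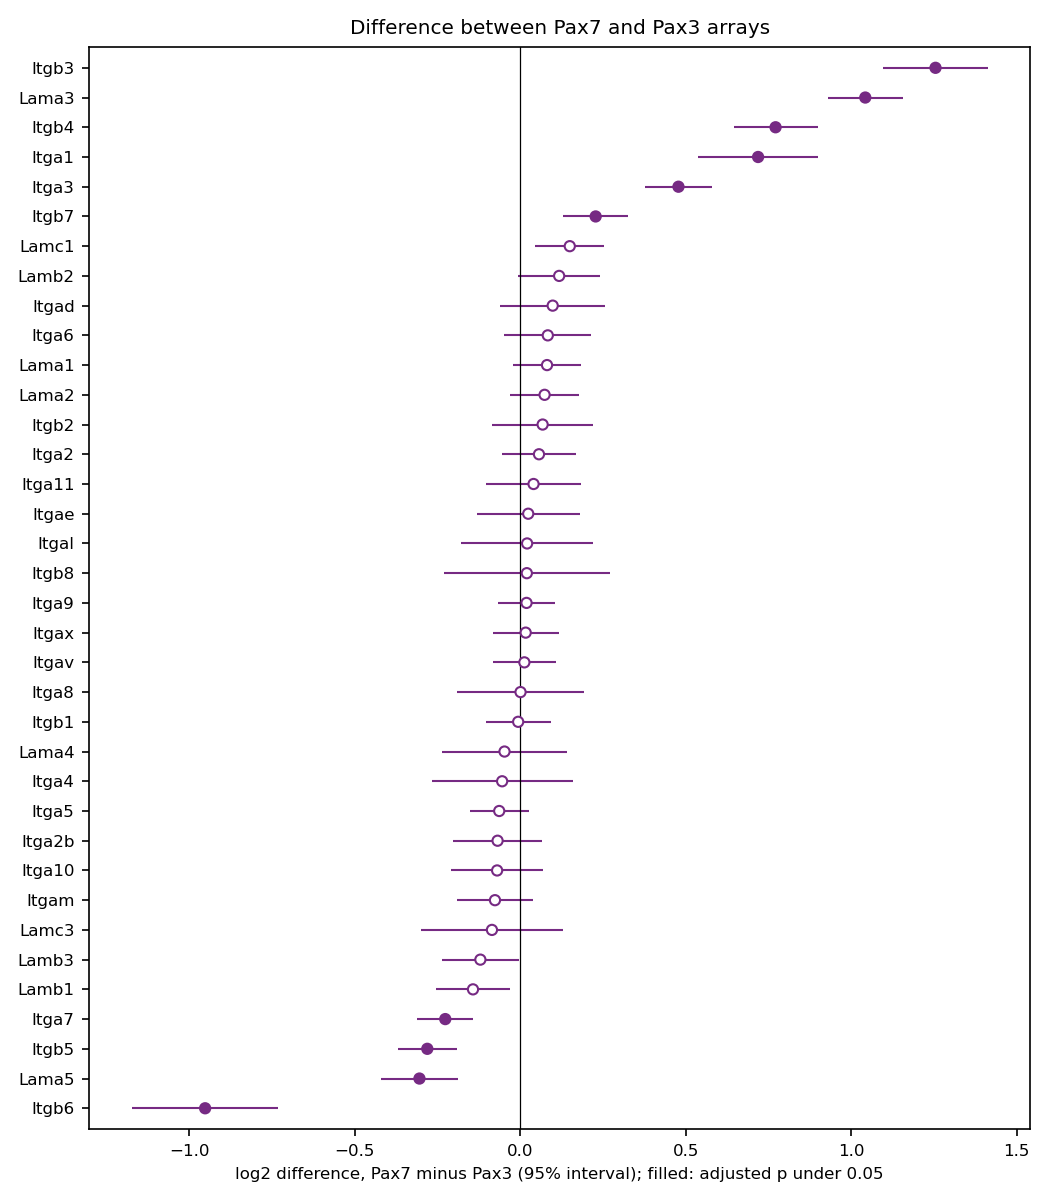
Log2 difference of Pax7 minus Pax3 arrays (horizontal axis) for all 36 members, sorted; lines are 95% intervals and filled points passed an adjusted p of 0.05. Itgb3 and Lama3 lie above 1, Itgb6 lies at -0.95, and Itga2 and Itgb8 lie near 0.

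Proteins that link integrins to the cell skeleton also changed in both directions. Of 27 measured adaptors and kinases, 11 rose, 9 fell and 7 did not pass with Pax7, and 12 rose, 7 fell and 8 did not pass with Pax3. The share called was 74.1% with Pax7 and 70.4% with Pax3, beside 43.2% and 39.6% of all genes, and the median log2 fold changes were 0.0878 and 0.0676. With the dimmest 50% of genes left out, 69.6% and 66.4% of all genes left were called with Pax7 and Pax3. Of the 69 genes in this list and the ligand, basement membrane and laminin receptor lists below, 54 were among the genes left. Itgb1bp2, a muscle-restricted partner of Itgb1 also called melusin, measured 6.30, 6.41 and 6.27 in Pax7 arrays, 6.64, 6.70 and 6.52 in Pax3 arrays, and 8.32, 8.50 and 8.26 in control arrays. It fell by 2.03 with Pax7 and fell by 1.74 with Pax3 (limma adjusted p = 1.28e-09 and 6.91e-09). The actin-binding adaptor Parvb rose by 1.12 with Pax7 and 1.02 with Pax3, and the focal adhesion scaffold Pxn by 0.80 and 0.99. The tensin Tns1 differed between the factors. It measured 9.66, 9.77 and 9.70 in Pax7 arrays, 10.72, 10.72 and 10.70 in Pax3 arrays, and 9.87, 9.84 and 9.98 in control arrays, so that Pax7 arrays lay below Pax3 arrays by nearly 1 log2 unit (limma adjusted p = 2.64e-07).

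Ligands and basement membrane partners followed no common direction. Of 17 measured integrin ligands other than laminin, 8 rose, 3 fell and 6 did not pass with Pax7, and 6 rose, 5 fell and 6 did not pass with Pax3 (64.7% called with each, beside 43.2% of all genes with Pax7 and 39.6% with Pax3). Tenascin C, Tnc, rose by 2.17 with Pax7 and 2.23 with Pax3, nephronectin Npnt by 1.28 and 1.00, and the elastic fibre protein Emilin1 by 0.93 and 0.65. Periostin, Postn, fell by 3.58 with Pax7 and fell by 2.58 with Pax3 (limma adjusted p = 2.1e-10 and 4.26e-09). Of 17 other basement membrane genes, 8 rose, 3 fell and 6 did not pass with Pax7 (64.7% called, beside 43.2% of all genes), and 6 rose, 4 fell and 7 did not pass with Pax3 (58.8%, beside 39.6%). Nid1 and Nid2, the nidogens that join laminin to the collagen network, rose by 1.46 and 0.71 with Pax7 and by 1.03 and 0.57 with Pax3. Col4a2, a chain of that network, fell by 0.65 with Pax7 and fell by 0.90 with Pax3. The tubulointerstitial nephritis antigen relative Tinagl1 measured 9.36, 9.41 and 9.39 in Pax7 arrays, 8.31, 8.28 and 8.19 in Pax3 arrays, and 7.21, 7.16 and 7.28 in control arrays, a rise of 2.16 with Pax7 and 1.04 with Pax3.

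Of 8 measured laminin receptors and receptor partners that are not integrins, 5 rose, 2 fell and 1 did not pass with Pax7 (87.5% called, beside 43.2% of all genes), and 3 rose, 2 fell and 3 did not pass with Pax3 (62.5%, beside 39.6%). The adhesion molecule Mcam measured 7.39, 7.35 and 7.37 in Pax7 arrays, 7.81, 7.91 and 7.73 in Pax3 arrays, and 10.22, 10.33 and 10.32 in control arrays. It fell by 2.92 with Pax7 and fell by 2.47 with Pax3 (limma adjusted p = 1.17e-11 and 6.51e-11). Bcam, which binds the Lama5 chain, rose by 1.04 with Pax7 (limma adjusted p = 3.65e-08) and did not pass with Pax3 (0.14, limma adjusted p = 0.0717). It was higher with Pax7 than with Pax3 by 0.90 (limma adjusted p = 1.1e-06). Dystroglycan, Dag1, the laminin receptor of the muscle membrane, fell by 0.46 with Pax7 and fell by 0.38 with Pax3, and the tetraspanin Cd9, which associates with laminin-binding integrins, rose by 1.18 and 0.75.

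**Figure D4:**
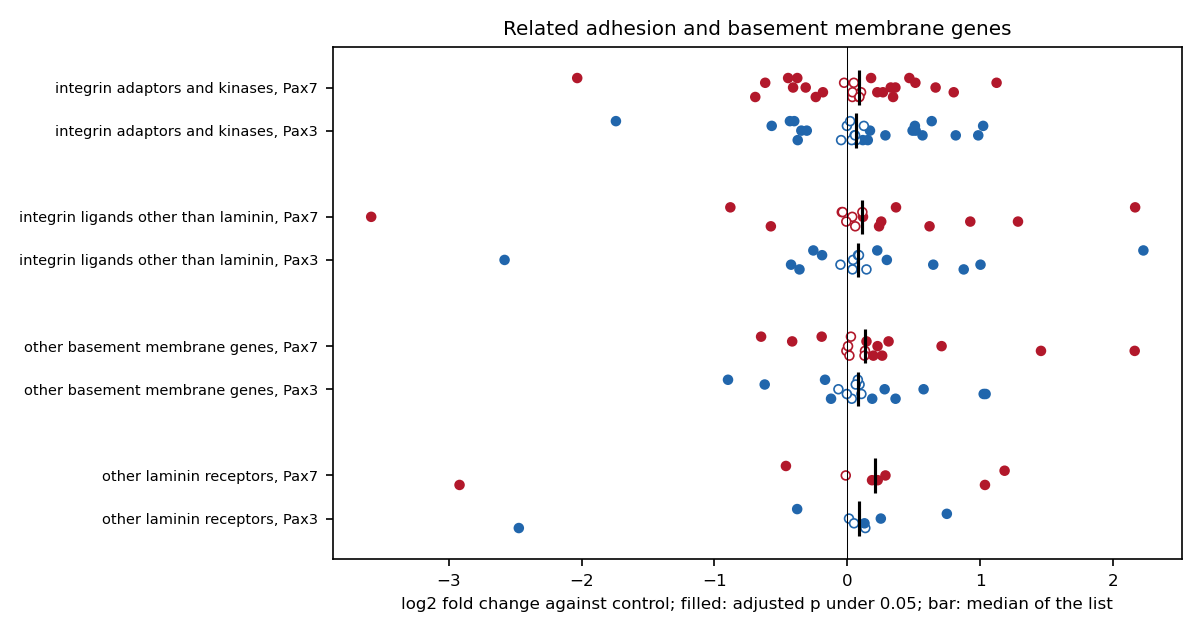
Log2 fold change against control (horizontal axis) of the related adhesion genes in 4 lists, for Pax7 (red) and Pax3 (blue); points are genes, filled where the adjusted p was under 0.05, and bars are list medians. Medians lie between 0.0676 and 0.207, with members on both sides of 0 in every list.

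Some muscle differentiation markers fell beside Itga7 and Itgb1bp2, and others did not. The mean log2 intensity of 8 myogenic markers ran from 9.90 to 9.98 in Pax7 arrays, 10.37 to 10.42 in Pax3 arrays and 10.51 to 10.63 in control arrays. The differentiation factor Myog had log2 fold changes of -2.43 with Pax7 and -1.30 with Pax3, Mef2c of -2.48 and -1.29, and the intermediate filament Des of -1.33 and -0.52. The early factor Myf5 rose by 2.02 and 1.97, and the related factor Myf6 by 0.41 and 0.51. Chrna1 did not pass with Pax7 (-0.10) or with Pax3 (0.08). In all, 5 of the 8 markers fell and 2 rose with Pax7, and 4 fell and 2 rose with Pax3 (87.5% and 75% called, beside 43.2% and 39.6% of all genes). The part of these markers in the fall of Itga7 and Itgb1bp2 was not tested. Of 8 endothelial markers 3 rose with Pax7 and 2 with Pax3, led by Egfl7 (1.05 and 0.63), and the other members of that list did not pass (37.5% and 25% called). Of 5 Schwann and glial markers 1 fell with each factor and 4 did not pass (20% called). Of 8 fibroblast markers 1 rose and 1 fell with Pax7, and 2 rose and 1 fell with Pax3 (25% and 37.5% called). The called shares of these 3 lists were below the 43.2% of all genes with Pax7 and the 39.6% with Pax3.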

How the data were processed

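The authors deposited log2 intensities per probe set after RMA (background correction, quantile normalisation and summary of probes by probe set), made in R 2.10.0 per the submitters' processing notes. The sources used here name no genome build or filter. The number of arrays, 9 in all, limits the precision.

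Of 25668 probe sets, 20777 carried 1 gene symbol in the platform annotation, 232 several and 4659 none. For each of 19661 genes the brightest probe set over the 9 arrays was tested. limma 3.58.1 (R 4.3.3) estimated the 3 group means of each gene in 1 fit with 6 residual and 4.37 prior degrees of freedom, with Benjamini-Hochberg adjustment over all genes and a threshold of 0.05. Errors of fold changes are moderated standard errors. The fit was tested on simulated data. Some genes have an identical deposited value on several arrays, so the spread within 3 arrays can be too small.

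The members, the related lists and the markers were chosen with earlier results of these data known. Every member is named. From each related list up to 4 called genes with the largest change against control are named, and from marker lists of other cell types those called at 1 log2 unit or more, beside Pax3, Pax7 and the sex-linked genes. Named outside this rule, after their values were seen, are Cdh1, Epcam, Ptprc, the myogenic markers and the neighbours of Itga2. Alternatives were another prior, filter, probe set summary, normalisation, threshold and set of arrays, and the replicate number as a block.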

Additional observations from a re-analysis of the deposited data

How the results depend on the processing

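Over 17 alternatives, 0 log2 fold changes of single members reversed direction where the member was called in either fit. With Pax3 against control, the 12 higher and 9 lower members became 11 and 9 with median centring. They became 9 and 6 without the dimmest 50% of genes, and 8 and 8 when a fold above 1.2 was required. The balance in the other comparisons is not given here. With any 1 array left out, 20 to 21 members were called with Pax3 against control, 21 to 22 with Pax7 against control and 10 to 11 between Pax7 and Pax3. In that order 35.1% to 39.4%, 38.2% to 47.1% and 12.8% to 21.8% of all genes were called. The related adhesion genes, 69 in all, gave 41 to 44, 45 to 49 and 21 to 31 calls in those comparisons, against 45, 49 and 31 with every array. Requiring a fold above 1.2 (limma's treat test), which by construction asks for a larger change, called 16 members with Pax3 and 17 with Pax7 against control in place of 21 each, and 6 between Pax7 and Pax3 in place of 10. In the same order it called 23, 26 and 6 related genes, and 3264, 3819 and 784 of all genes in place of 7780, 8485 and 3316. Without the dimmest 50% of genes, 15, 15 and 9 of the 19 members left were called in that order, beside 66.4%, 69.6% and 32.6% of all genes left.

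Besides the 8 fits given above, the Itga5 call with Pax3 was lost with median centring (limma adjusted p = 0.146). It was also lost with only the 6 arrays of the groups compared (0.0925) and in the treat test. The treat test also lost the calls of Itgav, Itgb1 and Lamb1 with each factor, of Itgb3 with Pax3 and of Lama5 with Pax7. Between Pax7 and Pax3 it lost those of Itga7, Itgb5, Itgb7 and Lama5. Without 1 array, single calls were gained by Itga10 without Pax3 replicate 2 (adjusted p = 0.0148) and Itgam without Pax3 replicate 3 (0.0163) with Pax3 against control. With Pax7 against control they were gained by Itgb2 without control replicate 3 (0.0456) and Lama1 without Pax7 replicate 2 (0.0422). Between Pax7 and Pax3 they were gained by Lamb1 without Pax3 replicate 3 (0.0433) and Lamc1 without control replicate 3 (0.046). In that comparison Lamc1 was also called with the robust trended prior (0.0263), the brightness filter (0.0238), median centring (0.0275) and repeated quantile normalisation (0.031). Lamb1 was also called with that prior (0.0491) and that filter (0.039). The causes were not tested.

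The labels state no pairing by replicate number. Same-numbered deviations from the group means correlated at r = -0.026 to 0.225, and at 0.0695 to 0.218 between Pax3 and control arrays. In 8 of 18 pairings of an array with another group, the best match among the 3 arrays of that group had its own number. These values cannot exclude a pairing. With the replicate block 20, 21 and 10 members and 43, 47 and 27 related genes were called. That was beside 40.2%, 44.3% and 16.9% of all genes, for Pax3 against control, Pax7 against control and Pax7 against Pax3. The Itga5 call with Pax3 was lost (adjusted p = 0.0753). Of the 17 members below the median gene in brightness, 6 were called with each factor (35.3%), and of the 19 above it 15 (78.9%). Over all genes 43.2% were called with Pax7 and 39.6% with Pax3. In the fits without the dimmest 50% of genes, those shares were 69.6% and 66.4%. The part of signal strength in this was not tested.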

Other observations

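Itga2 and Itga1 are next to each other on mouse chromosome 13 in the RefSeq gene order, and their neighbours were read after the values of both had been seen. Follistatin, Fst, a secreted inhibitor of activin and myostatin that lies beyond Mocs2 on the side of Itga2, fell by 2.43 with Pax7 and fell by 3.24 with Pax3 (limma adjusted p = 6.76e-10 and 1.36e-10). Its means were 8.43 in Pax7, 7.63 in Pax3 and 10.87 in control arrays. Mocs2, between Fst and Itga2, fell by 0.61 with Pax7 and fell by 0.55 with Pax3 (limma adjusted p = 0.000107 and 0.00027). Pelo, on the side of Itga1, did not pass, at 0.06 with Pax7 and 0.00 with Pax3, nor did Isl1 beyond it, at 0.08 and 0.07. Of the outermost genes read, Ndufs4 on the side of Fst fell by 0.16 with each factor (limma adjusted p = 0.0305 with Pax7 and 0.0352 with Pax3). Parp8, beyond Isl1, did not pass with Pax7 (-0.05) and rose by 0.17 with Pax3 (limma adjusted p = 0.0236).

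The deposited values hold exact repeats. In 17 of the 36 members (47.2%) at least 2 of the 9 arrays had an identical value, against 42.9% of all genes. All 3 arrays of a group were identical for Itgam and Itgax with Pax7 and for Itgb2 and Itgb4 with Pax3, against 1.8% of all genes in Pax7 arrays and 1.7% in Pax3 arrays.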
